A study of Mus musculus with 2 samples.

Results

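The 9 genes described here are the 3 Hedgehog ligands of the mouse (Shh, Ihh and Dhh), the receptor Ptch1, the signal transducer Smo, the ligand-binding decoy Hhip and the transcription factors Gli1, Gli2 and Gli3. They were chosen by symbol, from their known roles, and all 9 were matched among the 43346 Ensembl genes of each library. The data are RNA-seq of total RNA from heart of B6NCrl mouse embryos at embryonic day 13.5. There is 1 group, with biological replicates 2 and 1 and no mutant or treated group; both replicates pooled the sexes, and both are entered under the same donor record, so their spread may be partly technical. Whole hearts were measured, so a level does not say which cells made the RNA, and fewer cells of a type and less RNA per cell cannot be told apart.

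Hedgehog ligands are secreted, lipid-modified proteins. Without ligand, Ptch1 holds Smo inactive and the Gli proteins, above all Gli3, are trimmed into repressors; with ligand bound, Smo enters the primary cilium and full-length Gli proteins, above all Gli2, act as activators. Ptch1, Hhip and Gli1 are themselves transcribed in response to the signal, and Ptch1 and Hhip then bind ligand and limit its spread. In the developing mouse heart, Shh from pharyngeal and pulmonary endoderm is known to act on the second heart field, from which the outflow tract and the atrial septum are built.

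Replicate 2 held 36060765 estimated reads and replicate 1 held 36733400. TPM, the unit of level used below, is a transcript's abundance relative to all others after correction for its length, and 1 TPM of a 1 kb transcript equalled 27.4 reads (replicate 2) or 29.3 reads (replicate 1). All 8 cardiomyocyte markers checked, among them Actc1, Myl2 and Tnnt2, were above 100 TPM in both libraries, and no neural tube marker of 6 reached 1 TPM. Spike-in RNA held 5.04% of TPM in replicate 2 and 11.1% in replicate 1, so TPM of all other genes were lowered unequally. Bounds after a TPM are those of the deposited credibility interval, whose level the headers do not state.

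Of the 9 genes, 6 reached 1 TPM in both libraries (Dhh, Ptch1, Smo, Hhip, Gli2 and Gli3) and 3 stayed below it in both (Shh, Ihh and Gli1), beside 57.3% of 21474 protein-coding genes that reached 1 TPM in both. The median of the 9 mean levels was the 2.35 TPM of Dhh, beside a median of 3.07 TPM over all protein-coding genes. None of the 9 was an abundant transcript: their summed level was 29.4 TPM in replicate 2 and 29.0 TPM in replicate 1, of which Smo alone made 42.7% and 41.1%.

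**Figure D1:**
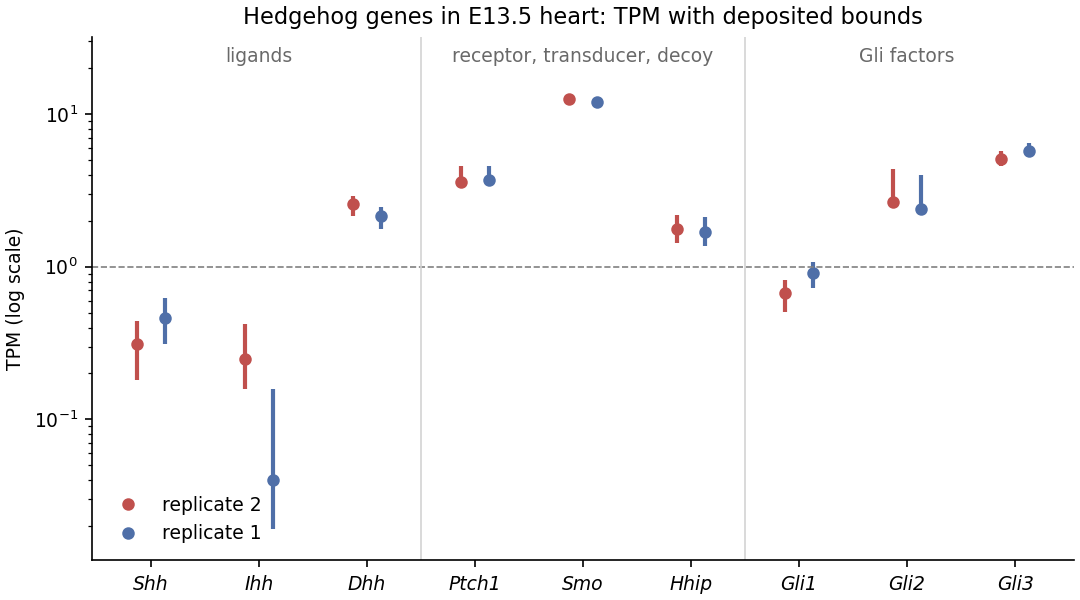
TPM on a log axis for the 9 genes, grouped by role, with replicate 2 left of replicate 1; points are the deposited TPM, lines the deposited credibility bounds, and the dashed line is 1 TPM. Smo stood highest, at 12.6 and 11.9 TPM, while Shh, Ihh and Gli1 lay below 1 TPM in both libraries.

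Among the ligands, Dhh carried most of the RNA. Dhh (ENSMUSG00000023000.4, chromosome 15, 98891152 to 98898540 of GRCm38, minus strand), best known from Schwann cells and the testis, had 2.56 TPM in replicate 2 (bounds 2.14 to 2.92, 159 reads) and 2.14 TPM in replicate 1 (bounds 1.77 to 2.46, 142 reads), a mean of 2.35 ± 0.30 TPM (SD, n = 2). It made 82.1% of the ligands' summed TPM in replicate 2 and 81.1% in replicate 1. Of markers for cells in which Dhh is known elsewhere, the Schwann and neural crest list summed to 7.24 TPM in replicate 2 and 5.62 TPM in replicate 1, with 2 of 7 genes at 1 TPM in both. Within that list Sox10 was at 0.35 and 0.34 TPM, and Foxd3 had no read in replicate 2, which allows up to 0.0492 TPM, and 1 read in replicate 1. All 5 endothelial markers were detected, summing to 205 TPM in replicate 2 and 195 TPM in replicate 1. Which of these cells made Dhh RNA was not tested.

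Shh (ENSMUSG00000002633.3, chromosome 5, 28456815 to 28467256, minus strand), the ligand of endoderm, notochord and limb bud, was at 0.31 TPM in replicate 2 (bounds 0.181 to 0.439) and 0.46 TPM in replicate 1 (bounds 0.313 to 0.622). These levels rested on 21.7 and 34.9 estimated reads. Ihh (ENSMUSG00000006538.10, chromosome 1, 74945315 to 74951672, minus strand), the ligand of growth plate cartilage and gut endoderm, had 0.25 TPM in replicate 2 (bounds 0.159 to 0.423, 16 reads) and 0.04 TPM in replicate 1 (bounds 0.0193 to 0.158, 3 reads). Dhh exceeded Shh by 8.26-fold in replicate 2 and 4.65-fold in replicate 1, with bounds that did not overlap in either library, and it stood above Ihh in both without overlap. Shh and Ihh were not ordered: their bounds overlapped in replicate 2 and did not in replicate 1.

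The promoter windows of the leading ligand and of Ihh are shown because both transcripts start at the same base in the RefSeq window and in the leading transcript of the files. Each runs from 250 bases before to 50 after the start site, 5′ to 3′ on the gene's strand (RefSeq, GRCm38.p6), at chr15:98898491-98898790 for Dhh and chr1:74951623-74951922 for Ihh. Capitals mark the GC box GGGCGG on either strand, a motif of general promoter factors; no 2 of the marked boxes overlap.
Dhh: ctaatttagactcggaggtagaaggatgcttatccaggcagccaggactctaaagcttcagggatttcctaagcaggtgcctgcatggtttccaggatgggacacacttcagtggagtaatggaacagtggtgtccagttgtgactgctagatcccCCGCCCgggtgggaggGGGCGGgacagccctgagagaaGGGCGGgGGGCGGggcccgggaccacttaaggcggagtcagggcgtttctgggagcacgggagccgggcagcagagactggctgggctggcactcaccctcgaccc
Ihh: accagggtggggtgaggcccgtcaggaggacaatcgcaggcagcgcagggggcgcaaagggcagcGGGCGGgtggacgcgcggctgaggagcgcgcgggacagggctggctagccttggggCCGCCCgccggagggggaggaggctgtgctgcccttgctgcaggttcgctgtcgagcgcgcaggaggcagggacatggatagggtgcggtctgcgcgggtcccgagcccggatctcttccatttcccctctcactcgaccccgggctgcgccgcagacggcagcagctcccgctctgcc
The Dhh window holds 4 GC boxes and 12 CpG dinucleotides, and the Ihh window 2 boxes and 30 CpG. Whether CpG content goes with RNA level was not tested. Of all 32851 promoter windows, 35.7% hold at least 1 GC box.

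Smo was the highest of the receptor genes and of all 9. Smo (ENSMUSG00000001761.6, chromosome 6, 29735503 to 29761365, plus strand), a seven-pass membrane protein that relays the signal, had 12.6 TPM in replicate 2 (bounds 11.6 to 13.0, 1266 reads) and 11.9 TPM in replicate 1 (bounds 11.1 to 12.3, 1284 reads). Its mean of 12.2 ± 0.46 TPM lay at percentile 68.1 of protein-coding genes. Ptch1 (ENSMUSG00000021466.7, chromosome 13, 63508328 to 63573598, minus strand), the ligand receptor and also a transcriptional target, had 3.56 TPM in replicate 2 (bounds 3.49 to 4.58, 673 reads) and 3.72 TPM in replicate 1 (bounds 3.59 to 4.57, 744 reads). Smo thus exceeded Ptch1 by 3.53-fold and 3.20-fold, without overlap of bounds. Hhip (ENSMUSG00000064325.3, chromosome 8, 79965851 to 80058006, minus strand), the decoy that binds ligand at the cell surface, had 1.77 TPM in replicate 2 (bounds 1.44 to 2.19, 175 reads) and 1.68 TPM in replicate 1 (bounds 1.37 to 2.10, 180 reads). Hhip was the lowest member to pass 1 TPM in both libraries, and Ptch1 exceeded it by 2.01-fold and 2.21-fold.

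The Gli factors stood in the order Gli3, Gli2 and Gli1 in both libraries. Gli3 (ENSMUSG00000021318.11, chromosome 13, 15463235 to 15730026, plus strand), the main source of Gli repressor, had 5.04 TPM in replicate 2 (bounds 4.55 to 5.68, 749 reads) and 5.73 TPM in replicate 1 (bounds 5.23 to 6.42, 915 reads). Gli2 (ENSMUSG00000048402.10, chromosome 1, 118834132 to 119053619, minus strand), the main activator, had 2.67 TPM in replicate 2 (bounds 2.42 to 4.34, 275 reads) and 2.37 TPM in replicate 1 (bounds 2.17 to 3.97, 304 reads). Gli1 (ENSMUSG00000025407.6, chromosome 10, 127329882 to 127341974, minus strand), an activator made mainly where the signal is received, had 0.67 TPM in replicate 2 (bounds 0.506 to 0.822, 65 reads) and 0.91 TPM in replicate 1 (bounds 0.725 to 1.08, 95 reads). Gli3 exceeded Gli2 by 1.89-fold and 2.42-fold, and Gli1 by 7.52-fold and 6.30-fold, all without overlap. Of the summed Gli TPM, Gli3 held 60.1% in replicate 2 and 63.6% in replicate 1, Gli2 31.9% and 26.3%, and Gli1 8.0% and 10.1%. RNA levels do not show how much Gli protein was in the full-length or the trimmed form.

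Set in order, the mean levels ran from Smo (12.2 TPM) over Gli3 (5.39), Ptch1 (3.64), Gli2 (2.52), Dhh (2.35), Hhip (1.73), Gli1 (0.79) and Shh (0.39) to Ihh (0.15). Of 36 pairs of members, 31 had the same order in both libraries with bounds that did not overlap in either. The 5 pairs that did not were all neighbours in the order: Gli3 and Ptch1, Ptch1 and Gli2, Gli2 and Dhh, Dhh and Hhip, and Shh and Ihh. With 2 libraries an exact test cannot reach 0.05, so these orderings carry no p-value. When the leading transcript of each gene was taken alone, an alternative chosen after seeing the data, 31 pairs were again apart, but Gli3 and Ptch1 came to 2.98 and 3.01 TPM, Gli2 and Hhip to 1.45 and 1.33 TPM, and Dhh could not be ordered against Gli3 or Ptch1.

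The longest identical coding stretches between pairs of ligands or of Gli factors are shown to give how much sequence they share. Only a read lying wholly within such a stretch cannot be assigned by sequence, and a longer read reaches bases that differ. They are printed 5′ to 3′ in lower case from the GENCODE M21 transcripts, for the pairs with the longest match.
Gli2 and Gli3: aagaaggagttcgtgtgccgctggc
Gli1 and Gli2: gagaagccacacaagtgcacgtt
Shh and Ihh: atgaaccagtggcctgg
Shh and Dhh: ttcgactgggtctacta
The Gli2 and Gli3 run spans 25 bases (coding bases 1339 to 1363 of Gli2 and 1528 to 1552 of Gli3), and the longest ligand runs span 17 bases. No 50-base window of one member occurred in another member. Overlap with other genes is larger in the M21 transcripts. There 23.6% of the 50-base windows of Shh lie opposite 9530036O11Rik or Gm26894 on the other strand. Of those of Dhh, 22.2% lie opposite Gm49442 and 10.3% are shared with Rhebl1 on the same strand. Dhh-201 is 4242 nt long in M21 against 2363 nt in the files, so its overlaps may lie partly in stretches that were not counted. No source used here gives the strand setting of the counting. The estimated reads of Shh, Hhip and Gli3 were not whole numbers, as happens where a read is divided between genes, while those of the other 6 genes were whole. How far this moved a level was not tested.

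Most of the TPM of Ptch1 was assigned to 1 transcript model. This split is an estimate between models that share much of their sequence, and start sites were not measured. Its leading transcript was Ptch1-202 (7002 nt, start site 63564535), with 78.4% of the gene's TPM in replicate 2 and 86.9% in replicate 1 (82.6% ± 6.0, SD, n = 2). By posterior mean TPM the share of Ptch1-202 was lower, at 65.3% in replicate 2 and 76.0% in replicate 1. Ptch1-201 (7725 nt), which starts 1200 bases upstream at 63565735, also inside the gene, held 12.1% and 6.23% of TPM. The coding sequence of Ptch1-202 (3891 bases) is contained in the 3′ part of that of Ptch1-201 (4302 bases), which has 411 further coding bases at its 5′ end. The first 60 coding bases of each are shown because the 2 transcripts differ there, with the start codon in capitals (GENCODE M21, minus strand of chromosome 13).
Ptch1-202: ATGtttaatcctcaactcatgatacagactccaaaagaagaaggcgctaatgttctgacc
Ptch1-201: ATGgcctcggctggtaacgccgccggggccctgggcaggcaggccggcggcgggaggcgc
RefSeq's promoter window for Ptch1 (GRCm38.p6, chr13:63565686-63565985, minus strand) belongs to the upstream start of Ptch1-201, not to the leading transcript, and is shown with its GC box in capitals.
Ptch1: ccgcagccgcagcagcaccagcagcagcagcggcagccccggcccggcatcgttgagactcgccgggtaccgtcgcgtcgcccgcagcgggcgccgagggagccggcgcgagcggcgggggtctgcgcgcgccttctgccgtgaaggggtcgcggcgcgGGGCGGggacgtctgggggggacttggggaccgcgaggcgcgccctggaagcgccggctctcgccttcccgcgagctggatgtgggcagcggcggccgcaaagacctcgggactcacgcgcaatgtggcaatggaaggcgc
With 47 CpG in 300 bases it lay at percentile 98.7 of all promoter windows.

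In Gli2, Gli3 and Hhip, short transcript models held a larger share of the TPM than of the reads. Gli2-201 (6637 nt) held 89.8% of the gene's reads in replicate 2 and 96.0% in replicate 1, but 51.5% and 64.4% of its TPM. The 367 nt model Gli2-202 held 16.2% and 25.9% of TPM from 3.19 and 4.82 reads. The 1097 nt model Gli2-205 held 26.1% of TPM in replicate 2, from 19.1 reads, and 0% in replicate 1. The 1194 nt model Gli2-204 held 0% in replicate 2 and 9.67% in replicate 1, so this split differed between the libraries. The long transcript Gli2-201 was thus at 1.38 TPM (replicate 2) and 1.52 TPM (replicate 1), below the gene value of 2.67 and 2.37 TPM. Gli3-201 (8170 nt) held 55.2% and 55.4% of TPM and 82.1% and 82.0% of reads. The shorter Gli3-202 (2004 nt) held 32.1% and 30.7% of TPM, from 84.4 reads in replicate 2 and 98.1 in replicate 1. In Hhip, Hhip-201 held 76.1% and 77.5% of TPM, the rest lying with the non-coding Hhip-202 of 909 nt. Shh, Dhh, Smo and Gli1 have 1 transcript each in the files, and of 2 Ihh transcripts 1 had reads. Of 28 named transcripts, 6 are longer in the later annotation GENCODE M21, with Hhip-201 at 9074 nt against 4582 nt and Dhh-201 at 4242 nt against 2363 nt in the files, so reads from those added stretches could not count here.

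**Figure D2:**
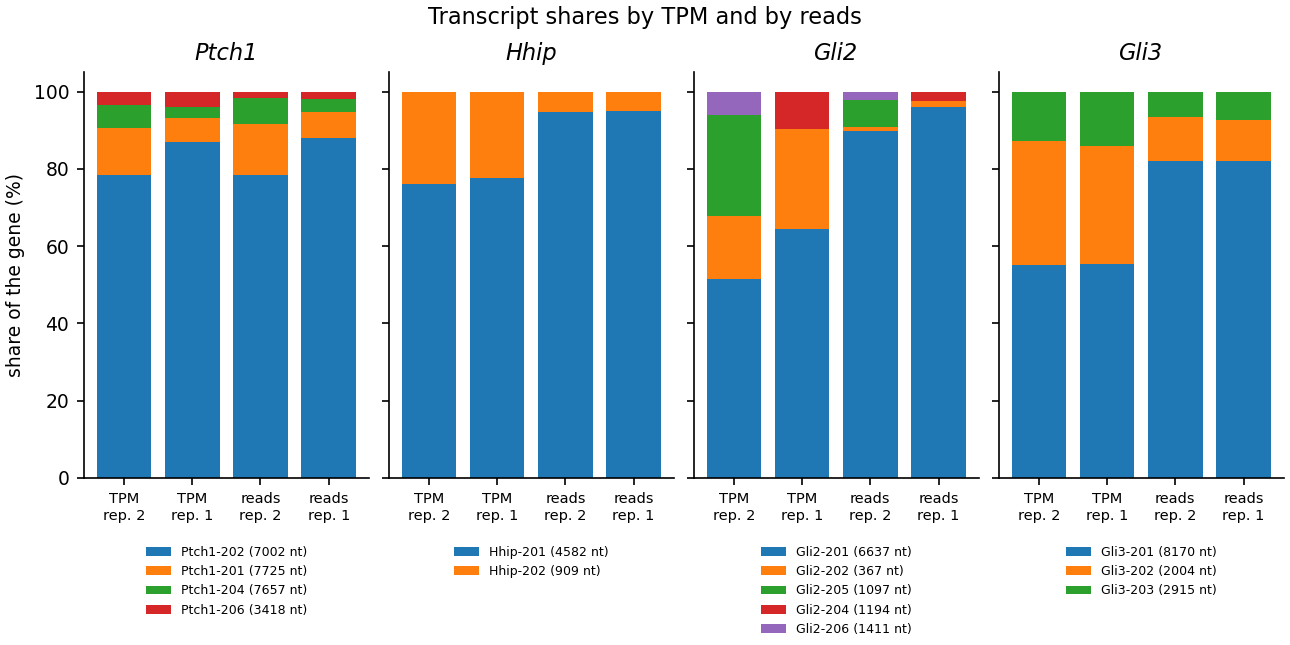
Share (%) of each gene held by its transcripts in the 4 members with several transcripts with reads; the 2 left bars of each panel are shares of TPM and the 2 right bars shares of reads, replicate 2 left of replicate 1. Gli2-201 takes 51.5% and 64.4% of TPM but 89.8% and 96.0% of reads, while Ptch1-202 leads by both measures.

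Most genes of the machinery around the 9 were detected. Of 81 pathway genes on 5 lists, each counted once, 71 (87.7%) reached 1 TPM in both libraries, beside 57.3% of protein-coding genes, with a median of 6.47 TPM. On the list for making and releasing ligand, which also holds the glypicans Gpc5 and Gpc6, 8 of 10 genes were detected. The palmitoyltransferase gene Hhat was at 5.24 TPM (replicate 2) and 4.89 TPM (replicate 1), and Disp1, which releases the lipid-modified ligand, at 7.09 and 6.97 TPM. The shedding proteases Adam10 (57.6 and 49.8 TPM) and Adam17 (18.7 and 17.4 TPM) were highest and Gpc5 (0.35 and 0.15 TPM) lowest.

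On the list of other receptors, co-receptors and glypicans, 6 of 7 genes were detected. The glypicans Gpc3 (441 TPM in replicate 2 and 397 TPM in replicate 1) and Gpc4 (38.6 and 32.8 TPM) led, and Lrp2 (0.36 and 0.45 TPM) was lowest. All 3 co-receptors that present ligand to Ptch1 were detected: Gas1 at 21.5 and 23.6 TPM, Boc at 6.44 and 7.80 TPM, and Cdon at 4.40 and 3.89 TPM.

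Of 28 regulators of Smo and Gli, 27 were detected. The subunits of protein kinase A, which marks Gli proteins for trimming, led with Prkar1a at 338 TPM (replicate 2) and 291 TPM (replicate 1) and Prkaca at 167 and 152 TPM. These kinases serve many other pathways. Sufu, the inhibitor that binds Gli proteins, was at 15.6 and 14.1 TPM, above every Gli gene, and the ciliary kinesin Kif7 at 1.42 and 1.84 TPM. Gpr161, a ciliary receptor that opposes the signal, was lowest at 0.47 and 0.44 TPM. Of 18 cilium and transport genes, 17 were detected, led by Kif3a (32.5 and 27.5 TPM) and Ift52 (28.9 and 28.9 TPM), with Bbs1 (0.81 and 0.93 TPM) lowest.

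Of 22 genes reported elsewhere as targets of the pathway, 17 were detected, with a median of 4.86 TPM. The cyclins Ccnd2 (111 TPM in replicate 2 and 95.1 TPM in replicate 1) and Ccnd1 (54.8 and 40.6 TPM) led, though many other signals are known to drive them. The forkhead gene Foxf1, a target in splanchnic mesoderm, was at 6.34 and 7.38 TPM and its relative Foxf2 at 0.90 and 0.80 TPM. Foxd1 was lowest, at 0.02 and 0.07 TPM. Foxf2, Foxl1, Foxd1 and Nkx2-2 stayed below 1 TPM in both libraries. Some targets are also pathway components or markers of endoderm, so the lists overlap. The list does not separate genes raised by the signal from genes lowered by it, so its count is no measure of signalling.

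**Figure D3:**
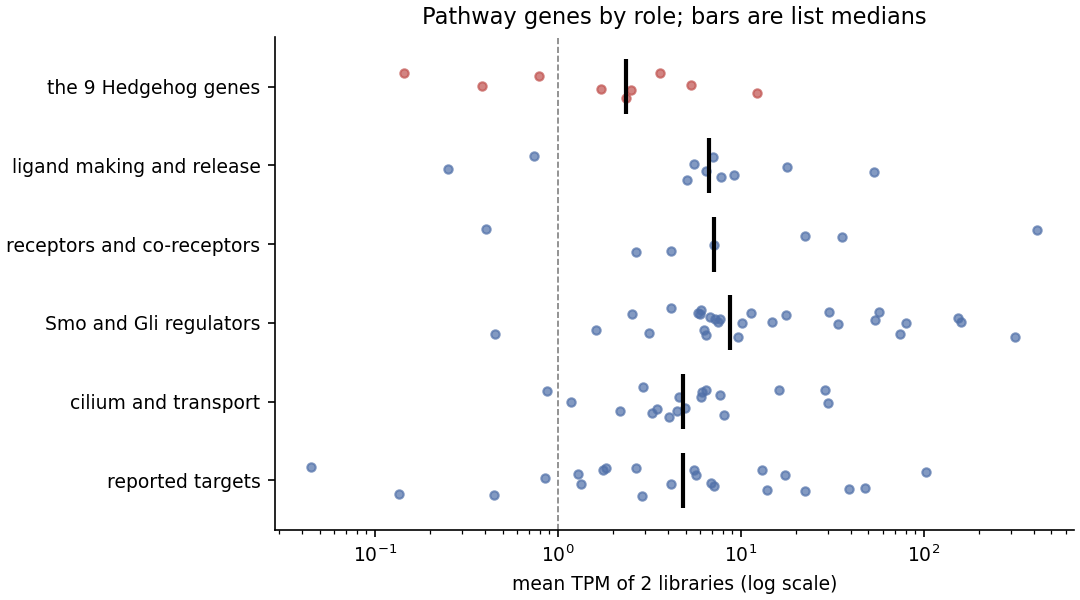
Mean TPM of 2 libraries on a log axis for the 9 Hedgehog genes and the 5 pathway lists; each point is a gene, black bars are medians and the dashed line is 1 TPM. The 9 genes had a median of 2.35 TPM, and the lists medians of 4.81 to 8.71 TPM.

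The replicates were then compared, as replicate 2 over replicate 1 in reads scaled by TMM (a factor that equalizes most genes). Each side is 1 library, so no p-value was computed, and intervals cover counting error only. Of the 7 members with a mean count of at least 50, 0 were 2-fold apart, beside 1.00% of 13757 genes tested in the same way. Dhh had 157 scaled reads in replicate 2 and 144 in replicate 1, a ratio of 1.08 (95% interval 0.860 to 1.37). The ratios of Smo (0.955), Hhip (0.942) and Gli2 (0.877) also had intervals that include 1.

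Gli1, Gli3 and Ptch1 were lower in replicate 2 by TMM and by TPM, and higher by spike-in scaling. Gli1 had 64.0 scaled reads in replicate 2 and 96.5 in replicate 1, a ratio of 0.665 (95% interval 0.476 to 0.918). Gli3 had 737 and 929 scaled reads, a ratio of 0.793 (95% interval 0.719 to 0.875). Ptch1 had 662 and 756 scaled reads, a ratio of 0.877 (95% interval 0.788 to 0.974). On the log2 scale these are −0.59 for Gli1, −0.33 for Gli3 and −0.19 for Ptch1, where 90% of tested genes lay within 0.33 of 0. In the ratio of deposited TPM, which was shifted by 0.15 over all genes, the log2 values were −0.44 for Gli1, −0.19 for Gli3 and −0.06 for Ptch1, and those of Smo, Hhip and Gli2 turned positive (0.08, 0.08 and 0.17). Scaling by spike-ins shifted the median gene by 1.29 and made all 9 ratios positive; relative to it Gli1 stood at −0.59 and Gli3 at −0.33.

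Shh and Ihh had too few reads for this comparison and are given as values. Shh had 21.4 scaled reads in replicate 2 and 35.5 in replicate 1, a ratio of 0.608 whose 95% interval of 0.340 to 1.07 includes 1. Ihh had 15.7 and 3.05 scaled reads, a ratio of 4.58 with an interval of 1.48 to 27.7. In TPM, Shh stood above Ihh in both libraries, but by 1.24-fold in replicate 2, within the bounds of each, and more widely in replicate 1, where Ihh rested on 3 reads.

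**Figure D4:**
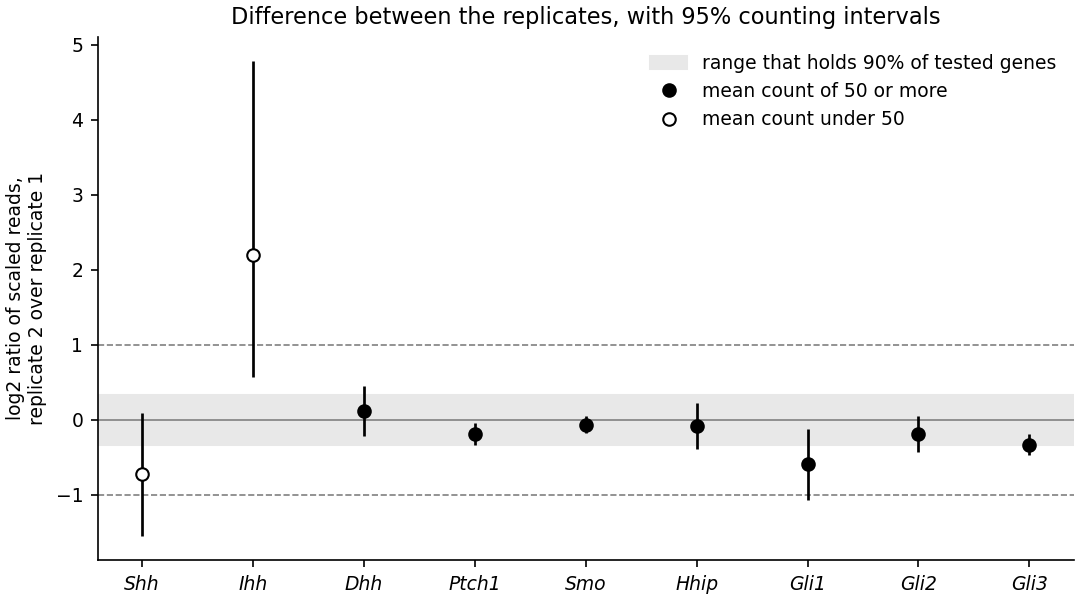
Log2 ratio of scaled reads, replicate 2 over replicate 1, for the 9 genes with 95% counting intervals; open points had a mean count under 50, dashed lines mark 2-fold and the grey band holds 90% of 13757 tested genes. Ihh stands apart at 2.20, resting on 16 and 3 reads, and Gli1 is the lowest filled point at −0.59.

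Marker lists of neighbouring tissues and of other heart cells were compared in the same way, and only the liver list had members that were 2-fold apart. The 6 liver markers summed to 453 TPM in replicate 2 and 90.5 TPM in replicate 1, and 5 were detected. All 5 with enough reads were over 2-fold higher in replicate 2. For 5 other lists with several genes tested the median log2 ratio was below 0, as were the ratios of all members but Dhh and Ihh. Besides liver, it was above 0 for cardiomyocytes (0.10), Schwann and neural crest (0.11) and cartilage (0.01). It was −0.71 for the second heart field, with 3 of 3 genes lower in replicate 2, sums of 4.67 TPM and 7.25 TPM, and Isl1 alone of 6 at 1 TPM in both. It was −0.42 for the epicardium, with 4 of 4 genes lower in scaled reads and sums of 105 and 127 TPM. It was −0.26 for lung and foregut, with 6 of 7 genes lower, 6 of 9 detected and sums of 49.6 and 52.5 TPM. In that list the log2 ratio ran from −0.88 for Nkx2-1 to 0.11 for Sftpc, so the lung marker Sftpc went the other way. It was −0.19 for fibroblasts and cushions, with 4 of 6 genes lower, all 6 detected and sums of 721 and 843 TPM, led by Col1a1 at −0.59. It was −0.10 for endothelium, with 4 of 5 genes lower. Of the 6 cartilage markers, 4 were detected, and replicate 2 was the higher in scaled reads for 4 of the 5 with enough reads. The cartilage list summed to 48.4 TPM in replicate 2 and 45.8 TPM in replicate 1. Like the other sums here, these are not corrected for the unequal share of spike-ins. Matn1 had 4 reads in replicate 2 and none in replicate 1, which allows up to 0.0538 TPM. None of the lung, liver or second heart field markers was at 0 in either library. The part of these tissues in the values of the Hedgehog genes was not tested.

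**Figure D5:**
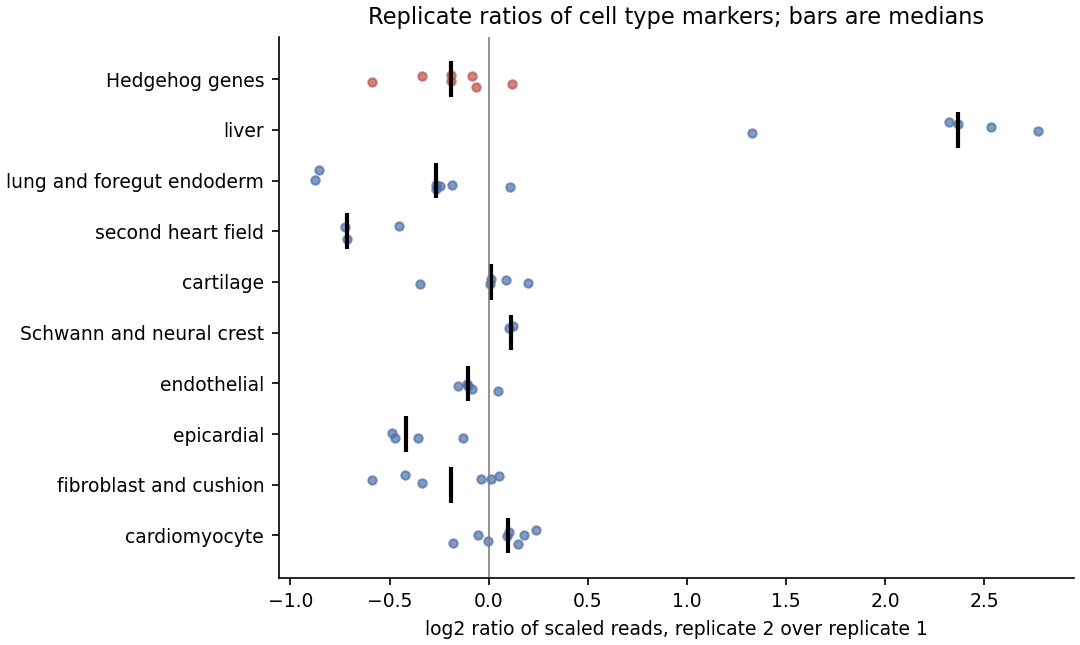
Log2 ratio of scaled reads, replicate 2 over replicate 1, for the Hedgehog genes and 9 marker lists; points are genes with a mean count of at least 50 and black bars are medians. The liver markers lie between 1.33 and 2.77, while the 3 second heart field genes with enough reads lie between −0.72 and −0.45.

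Promoter windows were found in the RefSeq table for 7 of the 9 genes (Ihh, Dhh, Ptch1, Smo, Hhip, Gli2 and Gli3). All 7 were rich in G and C, from 61.7% in Dhh to 76.3% in Ptch1, against a median of 52.7% over all windows. They held 12 to 47 CpG, against a median of 7. Of the 7 windows, 6 held a GC box, Smo being the exception, beside 35.7% of all windows. Windows of like G and C content were not compared. The Gli binding motif TGGGTGGTC, searched on both strands, occurred in 0 of the 7 and in 0.253% of all windows, so that these letters are not in the 300 bases around the starts examined. As with Ptch1, the window did not begin at the leading transcript of Gli3, which starts 257 bases downstream, or of Smo, 197 bases downstream.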

How the data were processed

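Both libraries of E13.5 heart were made from 10 ng of RNA over 200 nt with spike-ins, per the labels. Per the file headers, the deposited tables hold an expected count per gene and transcript, TPM over all listed features, the signal bounds of a credibility interval of TPM (deposited, level not stated) and the percent of a gene's TPM per transcript. Values come from transcriptome alignments on mm10 with annotation M4, per the deposited file descriptions; no source used here gives the aligner, the quantifier or their versions.

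Gene IDs were matched without version to GENCODE M21 (GRCm38); 42462 of 43346 matched, as did all 9 members and 81 pathway genes. The 96 spike-ins (2.56% and 5.96% of reads), 1 phiX entry and 26248 numbered features (49 and 42 reads) were left out of scaling. Coordinates are of M21. Genes were called detected at 1 TPM in both libraries. Expected counts were rounded for TMM (edgeR 4.0.16) and DESeq2 1.42.0 scaling in R 4.3.3; ratios add 0.5 to scaled counts and need a mean of 50. Intervals are exact binomial (95%) on the rounded counts, so they reflect counting error alone. No molecular identifiers were counted, so copies of 1 molecule could count as separate reads and the intervals may be too narrow. A count of 0 allows up to 3 reads. A chi-square of 25.2 per degree of freedom between the libraries showed that they are not 1 library deposited again. In a test on simulated data for replicate 2 over replicate 1 (13776 genes), 200 genes were changed by 2 on the log2 scale. A share of 1 of these was recovered, a change larger than the 2-fold cut. Of the unchanged genes a share of 7.4e-05 was called, whereas 1.00% of 13757 genes were 2-fold apart between the measured libraries. Recovery of smaller changes, such as those of the members, was not tested. Tables were handled in Python 3.11.15 with pandas 2.3.3 and numpy 2.4.6, intervals computed with scipy 1.17.1 and plots drawn with matplotlib 3.10.9.

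The members, gene lists and tests were chosen with earlier results of these data known. Named genes are all 9 members and, per pathway list, the 2 highest, the lowest and those directly related to a member; some of these are not reported here. Single marker genes, and the overlapping genes, were named after their values were seen. With 2 libraries of 1 condition, no gene was named for a similar pattern. Protein sequences were not used here.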

Additional observations from a re-analysis of the deposited data

How the results depend on the processing

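Of 9 members, 6 were detected at 1 TPM; 8 were at 0.1 TPM, 7 at 0.5 TPM and 2 (Smo and Gli3) at 5 TPM. Leaving out either replicate left 6 detected, 71 to 72 pathway genes detected and 31 to 33 member pairs apart, against 71 and 31 with both. Poisson intervals put 33 pairs apart. The 0 members that were 2-fold apart became 5 with spike-in scaling. There the median gene was shifted by 1.29 on the log2 scale, so most of all tested genes passed 2-fold as well. The count became 1 (Ihh, with 16 and 3 reads) with no minimum count. DESeq2 scaling, the ratio of TPM, added counts of 0.1, 1 and 5, posterior mean counts and minimum means of 10 and 200 gave 0. The mean TPM of Gli2 was 3.20 as a posterior mean and 1.45 over its leading transcript, and that of Gli3 was 2.98 over its leading transcript. Gli2-201 held 43.7% of the gene by posterior mean TPM, against 58.0% by TPM. The cause of these differences was not tested beyond the transcript shares given. No paired analysis was possible because there is only 1 group. At this depth Shh and Ihh, at 3 to 35 reads, could not be ordered.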

Other observations

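Values follow for 5 of the genes that share sequence with members on either strand in the M21 transcripts. Gm26894, opposite Shh, had 4.29 estimated reads in replicate 2 and 11.1 in replicate 1, not whole in either, and 9530036O11Rik had 0 and 2 reads. Rhebl1, on the strand of Dhh, had 4.68 TPM (replicate 2) and 4.64 TPM (replicate 1), above the 2.56 and 2.14 TPM of Dhh, and the counts of both genes were whole. Arhgap9, opposite Gli1, had 1.53 TPM (replicate 2) and 1.28 TPM (replicate 1), above Gli1 in both libraries. Gm6556, opposite Gli3, had 0.20 and 0.27 TPM, with counts that were not whole.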
